A study of Homo sapiens with 24 samples.

Results

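The Krüppel-like factors are zinc-finger transcription factors, and 10 of their genes (KLF2, KLF3, KLF4, KLF5, KLF6, KLF9, KLF10, KLF11, KLF13 and KLF16) are described here in A549 cells, an established human lung carcinoma line. They were chosen by gene name, as 10 of the 18 KLF genes in a table of 58302 genes. The choice followed the observation that KLF2 differed between GPD1 and vector cells under metformin, so that contrast is given below as values with no test. All 10 averaged 1 FPKM or more and so were among the 12607 genes tested.

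The question of the study was how GPD1, the cytosolic glycerol-3-phosphate dehydrogenase, bears on the growth of cancer cells with and without metformin, a biguanide that inhibits mitochondrial complex I. Polyadenylated RNA was sequenced in 4 groups of A549 cells with 3 labelled replicates each. These were cells given a GPD1 overexpression lentivirus and 10 mM metformin, the same GPD1 cells without metformin, cells given a blank vector lentivirus and 10 mM metformin, and the vector cells without metformin. All groups therefore carried a lentivirus. The labels give neither the promoter that drives GPD1 nor the hours of treatment, and they do not say whether replicates were separate cultures or transductions, so the p-values refer to variation among these libraries, and that variation may be technical. The 12 libraries of the 786-O line were not analysed here.

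GPD1 itself was at 13.3, 13.8 and 13.3 FPKM in GPD1 cells with metformin and at 15.7, 16.8 and 15.1 FPKM in GPD1 cells without it. In vector cells it lay between 0.025 and 0.103 FPKM, so every library matched the GPD1 or vector part of its label. The metformin part of the labels was not checked by this gene. FPKM, fragments per kilobase of transcript scaled to library size, is a share of the library. In cultures sequenced in bulk, fewer cells expressing a gene and less RNA per cell cannot be told apart. The libraries held about 13.3 to 18 M reads, judged from the steps of the low values, and 1 read on 1 kb was worth 0.0556 to 0.0752 FPKM. Mitochondrial genome transcripts took 10.3% to 11.4% of FPKM in GPD1 cells with metformin, against 30.2% to 32.3% in GPD1 cells without it, and 13.7% to 14.9% in vector cells with metformin, against 32.9% to 33.2% in vector cells without it. Of 6 epithelial markers, the keratins KRT7, KRT8 and KRT18 were high, while KRT19 stayed at or below 0.087 FPKM and EPCAM at or below 1.57 FPKM. The 5 lung lineage markers summed to 0.137 to 0.399 FPKM in every library, so the lung origin was not visible in them. The 3 endothelial markers PECAM1, CDH5 and VWF, of a cell type in which KLF2 and KLF4 are abundant, summed to at most 0.0267 FPKM, and CDH5 was listed at 0 throughout. Of 3 immune markers CD3E was listed at 0 and PTPRC was at most 0.0299 FPKM, whereas CD14 was at 5.95 to 10.7 FPKM in GPD1 cells and at 0.111 to 0.784 FPKM in vector cells. The 3 fibroblast markers summed to 3.15 to 3.31 FPKM in GPD1 cells with metformin, against 2.97 to 3.78 FPKM in GPD1 cells without it, and to 2.25 to 2.73 FPKM in vector cells with metformin, against 5.07 to 5.43 FPKM in vector cells without it. Nearly all of this sum was COL1A1, as COL1A2 was listed at 0 throughout and PDGFRB was at most 0.0521 FPKM. The 4 kidney lineage markers summed to 2.34 to 2.96 FPKM in GPD1 cells with metformin, against 2.72 to 4.91 FPKM in GPD1 cells without it, and to 2.496 to 3.20 FPKM in vector cells with metformin, against 4.69 to 4.90 FPKM in vector cells without it. That sum was almost wholly CA9 and PAX2, as PAX8 was at most 0.162 FPKM and LRP2 at most 0.00691 FPKM. The epithelial cadherin CDH1 was at 2.90 to 3.62 FPKM in GPD1 cells with metformin, against 3.39 to 4.81 FPKM in GPD1 cells without it, and at 2.26 to 2.94 FPKM in vector cells with metformin, against 9.24 to 9.29 FPKM in vector cells without it. The part of these markers and of the mitochondrial share in the results below was not tested, except through the scaling without mitochondrial genes.

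All Krüppel-like factors bind GC-rich and CACCC elements through 3 zinc fingers at the C terminus and differ in the domains before them. KLF2, KLF4, KLF5 and KLF6 recruit acetylases such as EP300 and mostly activate, KLF3 recruits the corepressor CTBP, and KLF9, KLF10, KLF11, KLF13 and KLF16 carry a domain that binds the corepressor SIN3A. Several are immediate early or stress-responsive genes. KLF2 and KLF4 are known targets of the kinase ERK5 and the MEF2 factors, KLF10 and KLF11 of TGF-beta, and KLF9 of the glucocorticoid receptor.

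RefSeq promoter windows (GRCh38.p14, 250 bases before the start site) were matched for 8 of the 10 genes, all but KLF3 and KLF10. Of these windows 4 are shown. Those of KLF2, KLF4 and KLF13 were taken because the libraries of these genes moved in opposite directions with metformin in the GPD1 and vector cells. A KLF11 window was taken because it, like that of KLF2, matched the loose pattern searched for MEF2. Sequences run 5′ to 3′ on the gene's own strand, and bases inside an annotated exon of GENCODE release 29 were cut from the end. Capitals mark the loose MEF2 pattern (CTA, then 4 bases of any kind, then TAG) in KLF2 at chr19:16324576-16324816 (plus strand). In KLF11 at chr2:10043971-10044174 (plus strand) they mark the cyclic AMP response element TGACGTCA. In KLF4 at chr9:107489770-107490019 (minus strand) they mark the E-box CACGTG. In KLF13 at chr15:31326585-31326834 (plus strand) they mark the CCAAT box on either strand.
KLF2: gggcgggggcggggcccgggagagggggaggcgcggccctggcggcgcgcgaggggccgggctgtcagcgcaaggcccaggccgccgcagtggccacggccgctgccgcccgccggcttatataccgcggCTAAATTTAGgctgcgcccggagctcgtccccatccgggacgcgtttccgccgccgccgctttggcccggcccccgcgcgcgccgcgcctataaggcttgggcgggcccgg
KLF11: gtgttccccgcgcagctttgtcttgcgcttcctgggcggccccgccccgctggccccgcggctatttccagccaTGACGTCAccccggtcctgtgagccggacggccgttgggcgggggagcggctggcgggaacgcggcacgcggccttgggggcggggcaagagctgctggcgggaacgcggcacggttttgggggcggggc
KLF4: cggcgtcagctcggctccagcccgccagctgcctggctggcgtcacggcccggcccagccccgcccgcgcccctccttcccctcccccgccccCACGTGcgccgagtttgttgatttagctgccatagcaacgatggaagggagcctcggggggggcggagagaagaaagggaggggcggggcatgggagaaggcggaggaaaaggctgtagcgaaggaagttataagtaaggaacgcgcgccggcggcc
KLF13: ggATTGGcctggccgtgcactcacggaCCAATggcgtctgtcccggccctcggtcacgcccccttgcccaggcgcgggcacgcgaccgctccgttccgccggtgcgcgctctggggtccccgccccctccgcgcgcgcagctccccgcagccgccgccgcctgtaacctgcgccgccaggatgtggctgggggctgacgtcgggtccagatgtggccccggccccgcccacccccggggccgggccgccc

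The KLF2 match, CTAAATTTAG, begins 120 bases before the start site. The loose MEF2 pattern occurred in 2.36% of the 35116 RefSeq windows, searched on both strands, and among the members' 10 windows (KLF5 and KLF11 have 2 each) it was in that of KLF2 and in a KLF11 window. Because it allows any bases in the middle, a match need not be a MEF2 site. The KLF11 match, CTAGCGGTAG, begins 18 bases before the start site of the printed window, in the bases not shown. Its middle bases are GCGG, where those of the KLF2 match are AATT. TGACGTCA, found in 1.65% of all windows, lies 176 bases before that same KLF11 start site. The annotated KLF11 gene begins further upstream, at base 10042849. CACGTG, found in 6.34% of all windows, lies 157 bases before the KLF4 start site used here, and was also in the KLF6 window and in a KLF11 window. The annotated KLF4 gene likewise begins upstream of its window, at base 107490482 on the minus strand. The CCAAT box, found in 32% of all windows, begins 223 and 248 bases before the KLF13 start, and was also in windows of KLF5, KLF6 and KLF9. The KLF2 window held 41 CpG dinucleotides and 80% G and C, and the KLF9 window held 1 CpG and 32.4% G and C, against medians of 11 and 58% over all windows. The motifs marked were picked from a larger search. The GC box GGGCGG, found in 42.6% of all windows, was in every member window except that of KLF9 and a KLF5 window. The CACCC and TATA motifs were searched too, and the AP-1, STAT and ATF4-CEBP motifs were in no member window. A match is a description of letters and does not show that a factor binds there.

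With metformin, most of these genes were higher in both kinds of cell, although more of all tested genes were called lower than higher, except in vector cells with median-ratio factors. In GPD1 cells 6 of the 9 members tested rose (KLF3, KLF6, KLF9, KLF10, KLF11 and KLF16) and 3 fell (KLF4, KLF5 and KLF13), where 26.1% of all tested genes were called higher and 48.0% lower (limma on log2(FPKM + 1), adjusted p under 0.05). In vector cells 8 of 9 rose, none fell and KLF5 was not called, where 31.3% of all tested genes were called higher and 43.3% lower. KLF2 is left out of these counts because its metformin libraries are those in which it was noticed. KLF7 and KLF12 also passed the filter but are not among the members. With metformin KLF7 was not called and KLF12 was lower in both kinds of cell, so the counts do not cover every expressed KLF gene. Over all 10 members, KLF2 included, the median log2 fold change was 0.64 in GPD1 cells and 1.39 in vector cells, beside -0.20 and -0.10 over all tested genes. Fold changes on this scale understate the change of genes at low FPKM. The 10 genes together summed to 150.4 to 161.1 FPKM in GPD1 cells with metformin, against 78.7 to 80.4 FPKM in GPD1 cells without it. In vector cells they summed to 224.3 to 261.4 FPKM with metformin, against 75.3 to 82.3 FPKM without it.

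**Figure D1:**
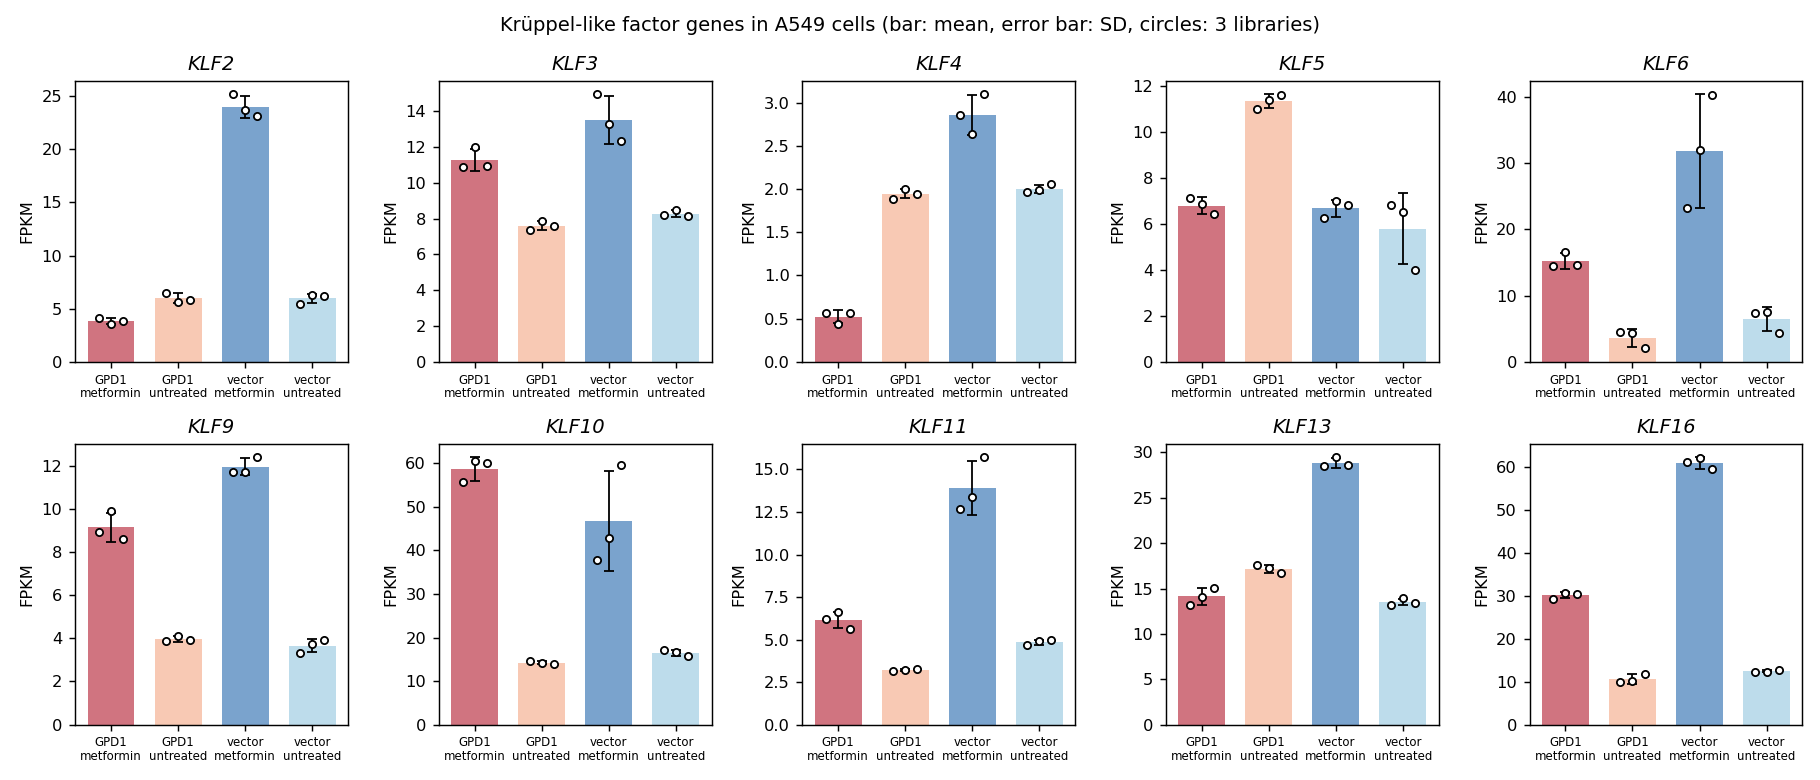
FPKM of each Krüppel-like factor gene in the 4 groups; bars are means, error bars SD and circles the 3 libraries of a group. KLF16 averaged 30.1 and 60.9 FPKM in GPD1 and vector cells with metformin, while KLF4 averaged 0.524 FPKM in GPD1 cells with metformin and 2.86 FPKM in vector cells with metformin.

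Among the activators, KLF2, a regulator of endothelial and T cell quiescence, showed the largest gap between the GPD1 and vector cells under metformin. In GPD1 cells KLF2 was at 4.16, 3.56 and 3.85 FPKM with metformin, against 6.48, 5.61 and 5.85 FPKM without it, so that every metformin library lay below every untreated one (log2 fold change -0.52 ± 0.07, SE). This value was -0.32 with median-ratio factors and -0.84 without mitochondrial genes in the totals. In vector cells KLF2 was at 25.1, 23.7 and 23.1 FPKM with metformin, against 5.44, 6.30 and 6.15 FPKM without it. All 3 metformin libraries lay above the untreated ones, and their mean was 4.02-fold higher (log2 fold change 1.84 ± 0.07, SE). About 120 to 124 reads stood behind KLF2 in each GPD1 metformin library and 676 to 862 in each vector metformin library. Its processed copies KLF2P1 to KLF2P4 were listed at 0 in all libraries.

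KLF4, a pluripotency and epithelial differentiation factor, was the lowest of the 10 genes in every group. It fell to 0.567, 0.440 and 0.564 FPKM in GPD1 cells with metformin, against 1.89, 2.00 and 1.95 FPKM in GPD1 cells without it, a 3.71-fold lower mean on FPKM (log2 fold change of FPKM + 1 -0.95 ± 0.06, SE, limma adjusted p = 1.1e-07). In vector cells KLF4 rose to 2.86, 2.63 and 3.10 FPKM with metformin, against 1.97, 1.99 and 2.06 FPKM without it (log2 fold change 0.36 ± 0.06, limma adjusted p = 0.00022). The groups did not overlap in either pair. Without mitochondrial genes in the totals the log2 fold change in vector cells was 0.15 (limma adjusted p = 0.0426), and with a pseudocount of 0.1 that in GPD1 cells was -1.72. Only about 28 to 32 reads stood behind KLF4 in each GPD1 metformin library, against 93 to 127 in each GPD1 untreated library. Its copy KLF4P1 was at 0 to 0.116 FPKM, and the counting rule for reads that match both is not given in the sources used here.

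KLF5, a factor of proliferating epithelium, fell in GPD1 cells to 7.13, 6.88 and 6.42 FPKM with metformin, against 11.03, 11.4 and 11.6 FPKM without it (log2 fold change -0.66 ± 0.14, limma adjusted p = 0.00112). That fall was -0.44 with median-ratio factors and -1.01 without mitochondrial genes in the totals. In vector cells KLF5 was at 6.28, 6.998 and 6.82 FPKM with metformin and at 6.82, 6.55 and 4.02 FPKM without it. These libraries overlapped and no change was called (log2 fold change 0.21 ± 0.14, limma adjusted p = 0.192), a value that rests on the third untreated library, without which it was 0.00 with adjusted p = 0.984.

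KLF6, which is induced by stress and injury in many tissues, had the largest standard errors of the 10. In GPD1 cells it rose to 14.4, 16.5 and 14.6 FPKM with metformin, against 4.53, 4.31 and 2.06 FPKM without it (log2 fold change 1.85 ± 0.26, limma adjusted p = 7.6e-05). In vector cells KLF6 rose to 23.2, 31.9 and 40.3 FPKM with metformin, against 7.44, 7.46 and 4.33 FPKM without it (log2 fold change 2.14 ± 0.26, limma adjusted p = 2.3e-05). The third untreated library was the lowest of its group in both kinds of cell, yet no metformin library overlapped an untreated one.

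KLF3, the CTBP-binding repressor, rose less than KLF6. It reached 10.9, 11.99 and 10.9 FPKM in GPD1 cells with metformin, against 7.37, 7.85 and 7.58 FPKM without it (log2 fold change 0.51 ± 0.06, limma adjusted p = 3e-05). In vector cells KLF3 reached 14.9, 13.3 and 12.3 FPKM with metformin, against 8.20, 8.51 and 8.15 FPKM without it (log2 fold change 0.64 ± 0.06, limma adjusted p = 4.5e-06). The non-coding gene KLF3-AS1 overlaps KLF3 and was at 2.12 to 2.68 FPKM in GPD1 cells with metformin, against 0.271 to 0.525 FPKM in GPD1 cells without it. In vector cells KLF3-AS1 was at 1.83 to 2.83 FPKM with metformin, against 0.314 to 0.610 FPKM without it. Strand is not stated for these libraries, so reads of the overlapping pair cannot be told apart. Leaving mitochondrial genes out of the totals ended the KLF3 call in GPD1 cells (log2 fold change 0.16, limma adjusted p = 0.0645) and gave 0.37 in vector cells.

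Of the 5 SIN3A-binding repressors, KLF9, KLF10, KLF11 and KLF16 rose in both kinds of cell. KLF16 rose to 29.3, 30.7 and 30.3 FPKM in GPD1 cells with metformin, against 9.83, 10.1 and 11.8 FPKM without it (log2 fold change 1.43 ± 0.06, limma adjusted p = 5.4e-09). In vector cells KLF16 rose to 61.1, 62.1 and 59.5 FPKM with metformin, against 12.3, 12.2 and 12.6 FPKM without it, a 4.91-fold higher mean (log2 fold change 2.21 ± 0.06, limma adjusted p = 2.1e-10). In both kinds of cell every metformin library lay above every untreated one. The antisense gene AC012615.4 overlaps KLF16, at 0.568 to 1.92 FPKM.

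KLF10, the TGF-beta inducible early gene, was the member with the highest mean in GPD1 cells with metformin. It rose there to 55.6, 60.5 and 60.1 FPKM, against 14.7, 14.1 and 13.96 FPKM in GPD1 cells without metformin (log2 fold change 1.97 ± 0.13, limma adjusted p = 1.4e-07). In vector cells KLF10 rose to 37.9, 42.9 and 59.7 FPKM with metformin, against 17.0, 16.7 and 15.7 FPKM without it (log2 fold change 1.43 ± 0.13, limma adjusted p = 1.6e-06). The third vector metformin library stood above the other two. KLF11, a regulator of pancreatic beta cell genes, rose to 6.23, 6.60 and 5.63 FPKM in GPD1 cells with metformin, against 3.16, 3.20 and 3.24 FPKM without it (log2 fold change 0.77 ± 0.07, limma adjusted p = 3.6e-06), a change of 0.45 without mitochondrial genes in the totals. In vector cells KLF11 rose to 12.7, 13.4 and 15.7 FPKM with metformin, against 4.69, 4.90 and 4.95 FPKM without it (log2 fold change 1.35 ± 0.07, limma adjusted p = 3.7e-08).

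KLF9, a glucocorticoid-induced repressor, rose to 8.91, 9.89 and 8.63 FPKM in GPD1 cells with metformin, against 3.85, 4.12 and 3.91 FPKM without it (log2 fold change 1.03 ± 0.06, limma adjusted p = 9.2e-08). In vector cells KLF9 rose to 11.7, 11.7 and 12.4 FPKM with metformin, against 3.31, 3.75 and 3.93 FPKM without it (log2 fold change 1.48 ± 0.06, limma adjusted p = 5.4e-09). KLF13, a regulator of T cell cytokine genes, was the member of this subfamily that did not rise in both. In GPD1 cells KLF13 was at 13.2, 14.1 and 15.1 FPKM with metformin, against 17.6, 17.3 and 16.7 FPKM without it, and was called lower (log2 fold change -0.27 ± 0.05, limma adjusted p = 0.00047). This call did not hold under median-ratio factors (log2 fold change -0.03, limma adjusted p = 0.633), and the change was -0.15 with upper-quartile factors and -0.63 without mitochondrial genes in the totals. Measured from the median of all tested genes, the GPD1 change of KLF13 was -0.07. In vector cells KLF13 rose to 28.5, 29.5 and 28.6 FPKM with metformin, against 13.2, 13.9 and 13.5 FPKM without it (log2 fold change 1.04 ± 0.05, limma adjusted p = 1e-08).

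**Figure D2:**
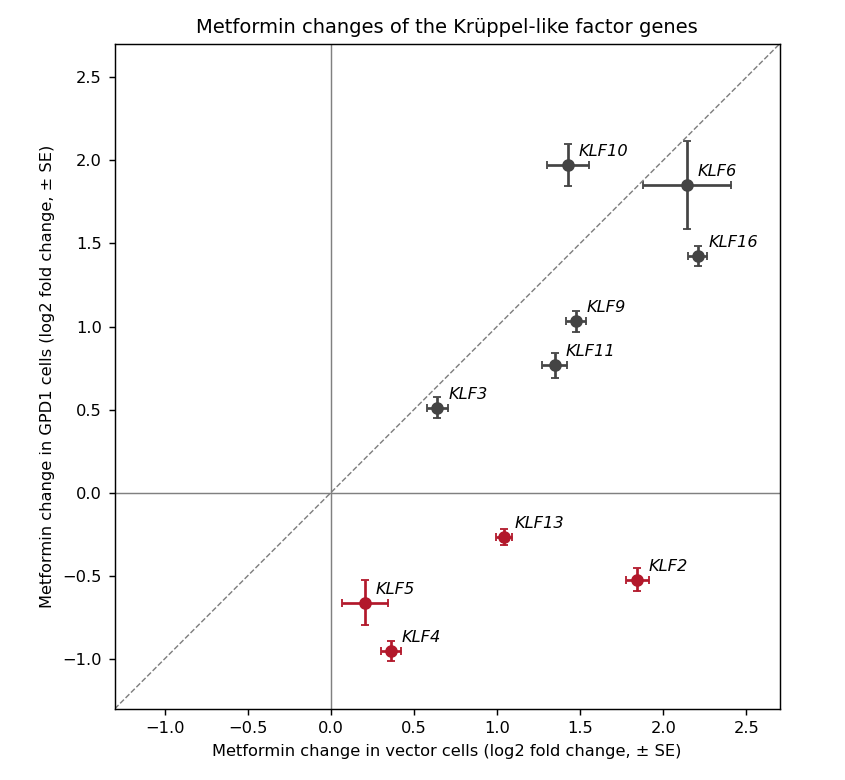
Metformin change (log2 fold change of FPKM + 1, ± SE) in GPD1 cells on the y axis and in vector cells on the x axis for the 10 genes; the dashed line marks equal changes, and genes below 0 in GPD1 cells are red. KLF10 lies above the line at 1.97 and 1.43, and KLF2, KLF4, KLF5 and KLF13 lie below 0 in GPD1 cells.

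KLF2, KLF4 and KLF13 were the members of which every GPD1 library was lower with metformin and every vector library higher, a pattern found in 5.43% of all tested genes. Of the genes in the lists below, SP4, SMAD3, SMAD4 and SMURF1 showed this pattern too. The change in GPD1 cells minus that in vector cells was -2.37 for KLF2, -1.31 for KLF4 and -1.31 for KLF13 on the log2 scale. It was 0.54 for KLF10, the one member with a positive value, and between -0.87 and -0.13 for the other 6. These differences were not tested, because they contain the contrast by which the genes were chosen. Adding 1 to FPKM understates the KLF4 difference, since KLF4 averaged only 0.524 FPKM in GPD1 cells with metformin. With a pseudocount of 0.1 the KLF4 change was -1.72 in GPD1 cells and 0.49 in vector cells.

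Without metformin fewer of these genes were called than with it. Of all 10 members, KLF5 and KLF13 were called higher in GPD1 cells, KLF11 and KLF16 lower, and 6 were not called, where 9.99% of all tested genes were called higher and 11.3% lower. KLF5 was at 11.03, 11.4 and 11.6 FPKM in GPD1 cells, against 6.82, 6.55 and 4.02 FPKM in vector cells, a 1.96-fold higher mean (log2 fold change 0.89 ± 0.14, limma adjusted p = 0.00095). No library of KLF5 overlapped the other group, and without the third vector library, the lowest, the log2 fold change was 0.68 and adjusted p = 5.4e-05. KLF13 was at 17.6, 17.3 and 16.7 FPKM in GPD1 cells, against 13.2, 13.9 and 13.5 FPKM in vector cells (log2 fold change 0.32 ± 0.05, limma adjusted p = 0.00082). KLF11 was at 3.16, 3.20 and 3.24 FPKM in GPD1 cells, against 4.69, 4.90 and 4.95 FPKM in vector cells (log2 fold change -0.48 ± 0.07, limma adjusted p = 0.00105). KLF16 was at 9.83, 10.1 and 11.8 FPKM in GPD1 cells, against 12.3, 12.2 and 12.6 FPKM in vector cells (log2 fold change -0.21 ± 0.06, limma adjusted p = 0.0256). Both genes were lower in every GPD1 library, but the KLF16 call ended when only these 2 groups were fitted (limma adjusted p = 0.08) and without GPD1 replicate 1 or 2 or any of the vector replicates (limma adjusted p = 0.0562 to 0.0932). KLF2 did not differ detectably, at a mean of 5.98 ± 0.45 FPKM in GPD1 cells and 5.96 ± 0.46 FPKM in vector cells (SD, n = 3 each, log2 fold change 0.00 ± 0.07, limma adjusted p = 0.979). KLF6 averaged 3.63 ± 1.37 FPKM in GPD1 cells and 6.41 ± 1.803 FPKM in vector cells (SD, n = 3 each). It was not called (log2 fold change -0.69, limma adjusted p = 0.0905). Without the third vector library it passed the threshold (-0.92, limma adjusted p = 0.0427), and without the third GPD1 library it was -0.42 (limma adjusted p = 0.275).

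With metformin, 8 of the 10 genes were lower in every GPD1 library than in any vector library, as were 37.1% of all tested genes. None was higher in every library, as 27.7% of all tested genes were. KLF2 was 6.21-fold lower and KLF4 5.46-fold lower on mean FPKM. KLF6, KLF11, KLF13 and KLF16 were 2.02- to 2.26-fold lower, KLF9 was 1.31-fold lower and KLF3 1.20-fold lower. The libraries of KLF5 overlapped, at 6.42 to 7.13 FPKM in GPD1 cells and 6.28 to 6.998 FPKM in vector cells, so the excess of KLF5 in GPD1 cells without metformin was not seen with it. KLF10 overlapped too, at 55.6 to 60.5 FPKM in GPD1 cells and 37.9 to 59.7 FPKM in vector cells. The median log2 difference over the 10 genes was -0.98, beside -0.05 over all tested genes. None of these values carries a test, since KLF2 was noticed in this contrast.

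**Figure D3:**
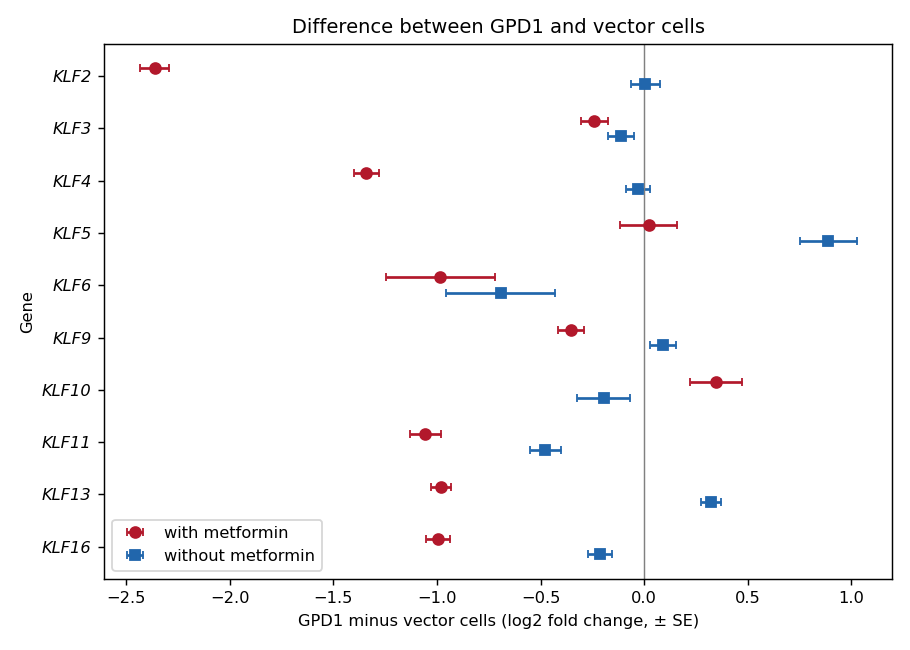
Difference between GPD1 and vector cells (log2 fold change of FPKM + 1, ± SE) for each gene, with metformin (red circles) and without it (blue squares). KLF2 lies at -2.36 with metformin and at 0.00 without it, and KLF5 at 0.02 with metformin and at 0.89 without it.

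The order of the genes by FPKM, which is per length, differed between groups. In GPD1 cells with metformin KLF10 came first, then KLF16, then KLF6 and KLF13, whose libraries overlapped, and KLF2 and KLF4 came last. In vector cells with metformin the libraries of KLF16, KLF10 and KLF6 overlapped their neighbours in that order, followed by KLF13 and KLF2. Without metformin KLF13 and KLF10 led in GPD1 cells, and KLF10 and KLF13 in vector cells.

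The genes fell into patterns across the 12 libraries, given as Pearson correlations of log2(FPKM + 1) with no p, since libraries of a group share their treatment. KLF3, KLF9 and KLF16 were most alike (0.974 for KLF3 with KLF16 and 0.971 for KLF9 with KLF16), and KLF2 was most like KLF13 (0.945). KLF5 was at or below 0.069 with every other member. Among 4863 other protein-coding genes averaging 5 FPKM or more, the 5 most like KLF2 were LUZP1, RGP1, GCC1, CRKL and SDE2 (0.993 to 0.988). LUZP1 averaged 3.83 and 4.88 FPKM in GPD1 cells with and without metformin, against 10.1 and 4.91 FPKM in vector cells with and without metformin. Those most like KLF4 were CHTOP, TNKS1BP1, RRAGA, MARS2 and AFF4 (0.989 to 0.987). Among those most like KLF6 were IMPDH2, MRPS30, PERP and ORAI1 (0.972 to 0.969), and KLF10 was most like LMBRD1, RPL8, RPL24, CCDC85B and TIPARP (0.989 to 0.987). TIPARP, a mono-ADP-ribosyltransferase, averaged 17.9 and 3.81 FPKM in GPD1 cells with and without metformin, against 12.4 and 3.82 FPKM in vector cells with and without it.

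The lists that follow are to be read against all tested genes, of which 26.1% were called higher and 48.0% lower with metformin in GPD1 cells, and 31.3% higher and 43.3% lower in vector cells, with median log2 fold changes of -0.20 and -0.10. Between the GPD1 and vector cells without metformin, 9.99% of all tested genes were called higher and 11.3% lower. Under median-ratio factors 4554 of all tested genes were called higher and 4693 lower in GPD1 cells, and 4752 and 4662 in vector cells. Without mitochondrial genes in the totals these numbers were 1706 and 8142 in GPD1 cells and 2683 and 6980 in vector cells. List counts under these scalings are to be read against them. Of 17 further KLF and SP genes 8 passed the filter. In GPD1 cells with metformin 1 of the 8 rose and 5 fell, and in vector cells 1 rose and 4 fell (median log2 fold change -0.33 in GPD1 cells and -0.13 in vector cells). With median-ratio factors 2 rose and 3 fell in GPD1 cells and 3 rose and 3 fell in vector cells, and without mitochondrial genes in the totals 0 rose and 7 fell in GPD1 cells. SP1, the founding GC-box activator, was the riser in both (log2 fold change 0.44 ± 0.06 in GPD1 cells, limma adjusted p = 6.8e-05, and 0.87 ± 0.06 in vector cells, limma adjusted p = 2.9e-07). SP9 fell in both (-1.38 ± 0.10 and -1.28 ± 0.10, limma adjusted p = 3.4e-07 and 5.8e-07), as did KLF12, a CTBP-binding repressor (-0.42 ± 0.06 and -0.53 ± 0.06, limma adjusted p = 0.00012 and 1.7e-05). Without metformin 3 of the 8 were higher in GPD1 cells, among them KLF7 at 4.89 to 5.33 FPKM, against 3.83 to 4.12 FPKM in vector cells (log2 fold change 0.31 ± 0.06, limma adjusted p = 0.00351) and KLF12 (0.28 ± 0.06, limma adjusted p = 0.0103), and SP4 was lower (-0.24 ± 0.07, limma adjusted p = 0.0332). Leaving mitochondrial genes out of the totals ended the SP1 call in GPD1 cells (0.08, limma adjusted p = 0.286). The remaining KLF genes lay under the filter, with KLF1, KLF8 and KLF18 listed at 0 in every library and KLF14, KLF15 and KLF17 at or below 0.117 FPKM.

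Of 11 partner genes, corepressors and coactivators that bind these factors, 10 fell with metformin in GPD1 cells and none rose, and in vector cells 7 fell and 1 rose (median log2 fold change -0.85 in GPD1 cells and -0.33 in vector cells). With median-ratio factors 9 fell and 1 rose in GPD1 cells, where the YAP1 call ended (limma adjusted p = 0.745), and 5 fell and 1 rose in vector cells, where the calls of CREBBP and SIN3B ended (limma adjusted p = 0.436 and 0.164). SIN3A, the scaffold bound by KLF9, KLF10, KLF11, KLF13 and KLF16, fell to 2.85, 2.51 and 2.50 FPKM in GPD1 cells with metformin, against 8.44, 8.56 and 8.27 FPKM without it (log2 fold change -1.38 ± 0.06, limma adjusted p = 8.8e-09). In vector cells SIN3A was at 8.70, 8.19 and 7.29 FPKM with metformin and at 8.62, 8.86 and 8.65 FPKM without it, with no call (limma adjusted p = 0.147). EP300, the histone acetylase, fell to 1.33, 1.16 and 1.24 FPKM in GPD1 cells with metformin, against 5.96, 6.44 and 6.09 FPKM without it (log2 fold change -1.68 ± 0.09, limma adjusted p = 2.6e-08). EP300 fell in vector cells too (-0.60 ± 0.09, limma adjusted p = 7.9e-05). The acetylase KAT2B fell in vector cells (-1.53 ± 0.05, limma adjusted p = 4.5e-10) and less in GPD1 cells (-0.51 ± 0.05, limma adjusted p = 2e-06). The deacetylase HDAC1 fell in both (-0.94 ± 0.06 in vector cells, limma adjusted p = 6.3e-08, and -0.96 ± 0.06 in GPD1 cells, limma adjusted p = 6.7e-08). In vector cells YAP1 was called higher (0.23 ± 0.09, limma adjusted p = 0.0412), though without mitochondrial genes in the totals it lay at -0.05. Without metformin KAT2B (-0.55 ± 0.05, limma adjusted p = 1.3e-05) and HDAC2 (-0.19 ± 0.04, limma adjusted p = 0.00849) were lower in GPD1 cells and the other 9 were not called.

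Of 10 genes of the ERK5 and MEF2 route upstream of KLF2 and KLF4, 7 passed the filter. In GPD1 cells with metformin 4 rose and 1 fell, in vector cells 4 rose and none fell, and without metformin 0 of 7 were called by limma between the GPD1 and vector cells, 2 having an unadjusted p under 0.05. Without mitochondrial genes in the totals, 2 rose and 3 fell in GPD1 cells and 3 rose and 3 fell in vector cells. The median log2 fold change of the 7 was 0.29 in GPD1 cells and 0.13 in vector cells. MEF2D, a factor that binds the MEF2 motif, rose to 23.6, 22.2 and 21.5 FPKM in GPD1 cells with metformin, against 8.69, 9.31 and 9.76 FPKM without it (log2 fold change 1.19 ± 0.07, limma adjusted p = 1e-07). In vector cells MEF2D rose to 41.5, 42.3 and 49.8 FPKM with metformin, against 8.90, 9.45 and 8.44 FPKM without it (log2 fold change 2.19 ± 0.07, limma adjusted p = 9.4e-10). HDAC5, a deacetylase that represses MEF2 factors, rose in both (1.42 ± 0.06 in GPD1 cells, limma adjusted p = 5.6e-09, and 1.17 ± 0.06 in vector cells, limma adjusted p = 1.6e-08). MAP3K3, a kinase above ERK5, fell in GPD1 cells (-1.02 ± 0.09, limma adjusted p = 2.6e-06) and was not called in vector cells (limma adjusted p = 0.49). ERK5 itself, MAPK7, lay under the filter at 0.313 to 1.26 FPKM.

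**Figure D4:**
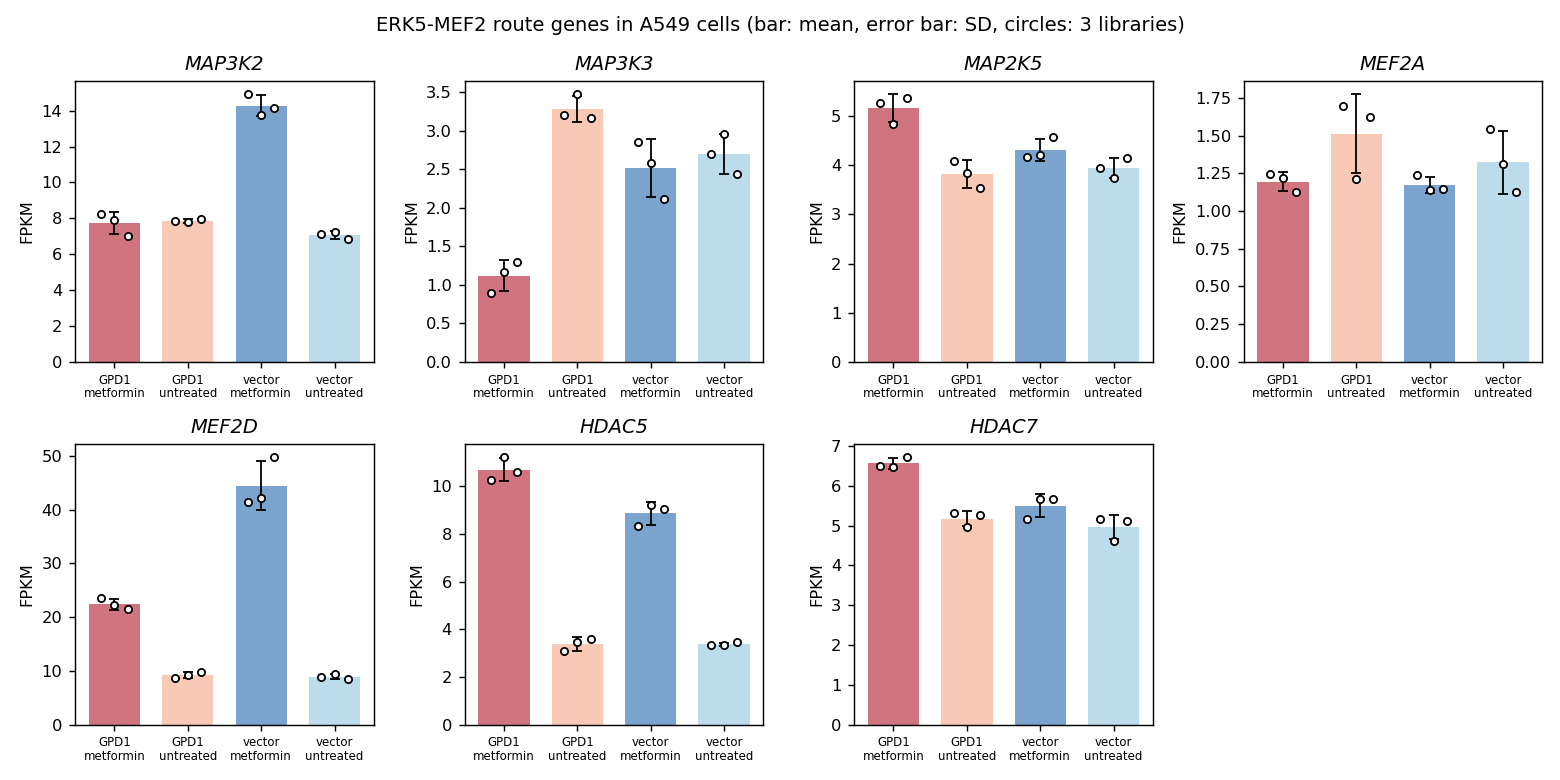
FPKM of the 7 genes of the ERK5 and MEF2 route that passed the filter, with bars, error bars and circles for means, SD and the 3 libraries of each group. MEF2D was at 41.5 to 49.8 FPKM in vector cells with metformin and at 21.5 to 23.6 FPKM in GPD1 cells with metformin.

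All 10 genes of the TGF-beta route above KLF10 and KLF11 were tested. In GPD1 cells with metformin 3 rose and 7 fell, and in vector cells 5 rose and 4 fell (median log2 fold change -0.53 in GPD1 cells and 0.18 in vector cells). Without mitochondrial genes in the totals 2 rose and 4 fell in vector cells. The ligand TGFB1 rose in both (0.85 ± 0.06 in GPD1 cells and 0.84 ± 0.06 in vector cells, limma adjusted p = 2e-07 in each). The receptor TGFBR2 fell in both (-1.68 ± 0.04 and -1.52 ± 0.04 in GPD1 and vector cells, limma adjusted p = 2.2e-10 and 1.5e-10). The ligase SMURF2 fell more in GPD1 cells (-1.01 ± 0.08, limma adjusted p = 5.3e-07) than in vector cells (-0.19 ± 0.08, limma adjusted p = 0.0451). Median-ratio factors ended the SMURF2 call in vector cells (limma adjusted p = 0.513). The ligand TGFB2 fell in both (-0.57 ± 0.06 and -0.82 ± 0.06 in GPD1 and vector cells, limma adjusted p = 4.7e-06 and 2.4e-07). Without metformin 3 of the 10 were higher in GPD1 cells, among them SMAD3 (0.29 ± 0.07, limma adjusted p = 0.0129), and TGFBR2 (-0.68 ± 0.04, limma adjusted p = 5.8e-07) and TGFB2 (-0.28 ± 0.06, limma adjusted p = 0.00596) were lower.

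Of 7 genes of the glucocorticoid response, among them the receptor NR3C1, 5 passed the filter, and 3 rose and 2 fell with metformin in each kind of cell (median log2 fold change 1.94 in GPD1 cells and 1.87 in vector cells). The clock gene PER1 rose to 10.6, 9.83 and 9.98 FPKM in GPD1 cells with metformin, against 1.77, 1.47 and 1.53 FPKM without it (log2 fold change 2.105 ± 0.06, limma adjusted p = 4.4e-10). In vector cells PER1 rose to 15.9, 15.5 and 15.5 FPKM with metformin, against 1.71, 1.47 and 1.60 FPKM without it (log2 fold change 2.68 ± 0.06, limma adjusted p = 6.4e-11). The phosphatase DUSP1 rose in both (1.94 ± 0.08 and 2.08 ± 0.08, limma adjusted p = 5.6e-09 and 2.4e-09 in GPD1 and vector cells). The receptor NR3C1 fell (-1.01 ± 0.07 and -0.22 ± 0.07, limma adjusted p = 3.6e-07 and 0.017), and so did the chaperone FKBP5 (-1.06 ± 0.09 and -1.08 ± 0.09, limma adjusted p = 1.7e-06 and 1.3e-06). Median-ratio factors ended the NR3C1 call in vector cells (-0.08, limma adjusted p = 0.313). Without metformin limma called 0 of the 5 between the GPD1 and vector cells, and 0 had an unadjusted p under 0.05.

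Of 9 reported targets of KLF2 and KLF4 only 3 passed the filter, so the vascular targets THBD, NOS3 and S1PR1 could not be tested. CDKN1A, the cell cycle inhibitor p21, rose with metformin in both (2.37 ± 0.09 in GPD1 cells, limma adjusted p = 3.5e-09, and 1.87 ± 0.09 in vector cells, limma adjusted p = 1.3e-08) and was higher in GPD1 cells without metformin (0.39 ± 0.09, limma adjusted p = 0.0103). CCND1 fell with metformin (-0.26 ± 0.05 and -0.996 ± 0.05, limma adjusted p = 0.00064 and 1.7e-08 in GPD1 and vector cells), and so did BMPR2 (-0.90 ± 0.05 and -1.49 ± 0.05, limma adjusted p = 3.7e-08 and 7.9e-10). Median-ratio factors ended the CCND1 call in GPD1 cells (-0.02, limma adjusted p = 0.754). Of 8 ubiquitin ligases and deubiquitinases reported to act on KLF proteins, 2 rose and 6 fell with metformin in GPD1 cells, and 2 rose and 3 fell in vector cells (median log2 fold change -0.42 in GPD1 cells and -0.01 in vector cells). With median-ratio factors 2 rose and 4 fell in GPD1 cells, where the calls of VHL and WWP1 ended (limma adjusted p = 0.476 and 0.393), and 3 rose and 2 fell in vector cells. FBXO32 rose in both (0.24 ± 0.06 and 0.49 ± 0.06, limma adjusted p = 0.00561 and 3.2e-05), and FBXW7 rose in GPD1 cells (0.18 ± 0.07, limma adjusted p = 0.0459). SMURF1 rose in vector cells (0.44 ± 0.07, limma adjusted p = 0.00026) but fell in GPD1 cells (-0.59 ± 0.07, limma adjusted p = 2.8e-05). Without mitochondrial genes in the totals, the calls of FBXO32 and FBXW7 in GPD1 cells (limma adjusted p = 0.351 and 0.785) and of SMURF1 in vector cells (limma adjusted p = 0.0626) ended. BTRC (-0.84 ± 0.06 and -0.93 ± 0.06, limma adjusted p = 5.5e-07 and 2.2e-07) and USP10 (-0.69 ± 0.08 and -0.72 ± 0.08, limma adjusted p = 1.7e-05 and 1e-05) fell in GPD1 and vector cells. Without metformin FBXO32 was lower in GPD1 cells (-0.25 ± 0.06, limma adjusted p = 0.016) and the other 7 were not called.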

How the data were processed

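The deposited table holds 58302 genes by 12 A549 columns, which the authors computed as FPKM, a unit inferred from the values because the header names none (RPKM would look alike). Low values times merged exon length (GENCODE release 29) were within 0.02 of a whole number of reads for 64.6% to 69.4% of genes with up to 10 reads at the best depth between 10 and 20 M reads, against a median of 1.32% to 1.56% over the depths searched. A multiple of that depth would give whole reads too, so the depths and read numbers are approximate. CASAVA 1.8, HISAT2 2.1.0, edgeR and GRCh38 are named in the submitters' processing notes, and an NEBNext kit in the labels' protocols. The 12607 genes averaging 1 FPKM or more were log2-transformed after adding 1 and fitted as 4 group means by limma 3.58.1 under R 4.3.3, with a trend in the prior variance and Benjamini-Hochberg adjustment over all tested genes at 0.05. Replicates of a group were not copies, since each of the 12 pairs differed in at least 25829 genes. Members and gene lists were chosen with earlier results of these data known. All members were named, and of each list the 2 genes with the smallest p per direction and comparison. Some genes that this rule names are not reported here. The test was also run on simulated data in which few genes changed, unlike in these libraries. That run therefore cannot vouch for the calls or the scaling here. Alternatives were 3 scalings, no filter, a pseudocount of 0.1, a fit restricted to the pair of groups, a block for replicate number, a minimum absolute log2 fold change of 1, and omission of each library. Promoters came from RefSeq (GRCh38.p14).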

Additional observations from a re-analysis of the deposited data

Results flagged for a closer look

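KLF2, KLF4 and KLF13 stood out because every GPD1 library was lower with metformin and every vector library was higher. Under median-ratio factors the GPD1 change of KLF13 was -0.03 and that of KLF2 -0.32, which was -0.84 without mitochondrial genes in the totals, where the vector change of KLF4 was 0.15 (limma adjusted p = 0.0426). The change in GPD1 cells minus that in vector cells was -2.37 for KLF2, -1.31 for KLF4 and -1.31 for KLF13 on the log2 scale. These differences were not tested, and the same pattern of libraries was found in 5.43% of all tested genes. The KLF4 difference is understated by the 1 added to its low FPKM. With a pseudocount of 0.1 the KLF4 change was -1.72 in GPD1 cells and 0.49 in vector cells.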

How the results depend on the processing

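Over 19 alternatives, the tested values of the members kept direction and side of the threshold in 516 cases, lost the call in 8, gained it in 4 and reversed in 4. Many of these alternatives could move only the adjusted p. No filter, the fit restricted to the pair of groups, the replicate block and omission of a library outside the pair leave the fold change as it was. The 516 cases therefore overstate how far direction was tried. Leaving out each library in turn, 9 members were called with metformin in GPD1 cells, 8 in vector cells, and 3 to 5 between the GPD1 and vector cells without metformin. With a log2 fold change of at least 1 asked for, 4 members were called by limma with metformin in GPD1 cells (against 9) and 6 in vector cells (against 8). Between the GPD1 and vector cells without metformin 0 were called (against 4). The share of all tested genes that passes this stricter threshold is not given, so these counts have no background. Without the filter, when genes of lower FPKM were tested too, 14315 genes were called with metformin in vector cells, against 9411.

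Values that reversed were small. With totals taken without mitochondrial genes, KLF5 with metformin in vector cells was -0.0499 (limma adjusted p = 0.75), KLF2 between the GPD1 and vector cells without metformin was -0.0036, and KLF5 between them with metformin was -0.0663. KLF2 without metformin lay between -0.0514 and 0.0426 with a library left out, and the KLF5 difference with metformin between -0.0188 and 0.0573. KLF5 with metformin in vector cells passed the threshold with median-ratio factors (limma adjusted p = 0.0467). KLF10 without metformin passed it when only the 2 groups compared were fitted (limma adjusted p = 0.0261) and without the third vector metformin library (limma adjusted p = 0.0353). The cause was not tested.

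Scaling moved the median of all tested genes with metformin in GPD1 cells to -0.01 with median-ratio factors and to -0.49 without mitochondrial genes, against -0.20, and in vector cells to 0.02 and -0.34, against -0.10. Genes called higher and lower numbered 4554 and 4693 with median-ratio factors and 1706 and 8142 without mitochondrial genes in GPD1 cells, against 3293 and 6056. In vector cells they numbered 4752 and 4662 with median-ratio factors and 2683 and 6980 without mitochondrial genes, against 3948 and 5463. With the replicate number as a block, 9, 8 and 4 members were called in the same 3 comparisons, and 9253, 9333 and 2374 of all genes. Same-numbered libraries did not deviate together (correlations of -0.065 to 0.056 over 18 pairs), 4 of 12 libraries correlated best with their own number, and the numbers were not taken as pairs. Depth limits KLF4 most, with about 28 to 32 reads per GPD1 metformin library.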
